A study of Mus musculus with 3 samples.

Results

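The 10 genes described here encode ETS transcription factors: Etv1, Etv4 and Etv5, which form the PEA3 group, and Etv6, Ets1, Ets2, Elk1, Elk3, Elk4 and Erf from other branches of the family. They were chosen by gene symbol, with every probe that carries one of these names in the scanner files, which gave 10 of 27670 gene names and 18 of 41174 non-control probes. The PEA3 group had 4 probes and the other ETS members had 14. Their RNA was measured in mouse otic placodal ectoderm, the patch of head ectoderm that forms the inner ear, microdissected from untreated embryos with 4 to 8 somites. The control was heterozygous for both null alleles (Fgf3+/-;Fgf10+/-) and was labelled with Cy3. The mutant was homozygous for both (Fgf3-/-;Fgf10-/-) and was labelled with Cy5. Each of 3 arrays carried 1 pool of 10 placodes of each genotype, and the 3 pools of a genotype were biological replicates per the labels. The dyes were not swapped, so dye and genotype cannot be told apart for any single probe. The control also carries 1 null allele of each gene, and no wild type was compared. In such dissected tissue, fewer cells of a type and less RNA per cell cannot be told apart.

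ETS factors share a DNA-binding domain that recognises a GGAA core, and many of them are effectors of receptor tyrosine kinases. When a fibroblast growth factor binds its receptor, the RAS to ERK kinase cascade phosphorylates ETS proteins already present in the cell and switches on others as new transcripts. Transcripts of the PEA3 group are widely used as readouts of active FGF signalling in embryonic tissues. Erf and Etv6 are repressors, Ets1 and Ets2 are activators that ERK phosphorylates, and Elk1, Elk3 and Elk4 are ternary complex factors that bind DNA together with SRF.

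The Etv4 probe lies on the minus strand of chromosome 11 at positions 101879168 to 101879227 of mm7, the build named in the files. Both Etv5 probes lie on the minus strand of chromosome 16, probe 1 at 22033331 to 22033390 and probe 2 at 22032301 to 22032360, which is 1030 bases further along the gene's strand. Which exon or untranslated region a probe falls in was not analysed here. The first 30 bases of each are given because the main contrasts below rest on these 3 probes.
Etv4: tggaggcaggccaaatctaaaggcagtagc
Etv5 probe 1: tgttcttggctgttcctaaagcttgccctt
Etv5 probe 2: atgtactacacacatgtcatatagtacata
Ets1 has 4 probes on the plus strand of chromosome 9, numbered from 5′ to 3′. Probe 1 at 32655853 to 32655912 and probe 2 at 32655863 to 32655922 cover 50 bases in common. They are printed whole because they measure nearly the same stretch with unlike letters, with the mismatched bases in capitals.
Ets1 probe 1: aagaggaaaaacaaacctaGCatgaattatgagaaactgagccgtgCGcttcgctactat
Ets1 probe 2: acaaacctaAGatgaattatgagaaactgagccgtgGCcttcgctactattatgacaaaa
Counted from 1 at the 5′ end of probe 1, probe 2 differs by G20A, C21G, C47G and G48C, 4 mismatches in all. Which letters are those of the mouse genome was not analysed here. Probe 3 lies at 32656915 to 32656974 and probe 4 at 32658897 to 32658956.

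The spots that cleared background by the scanner's criterion numbered 26452 to 28258 per array for the double heterozygote and 27284 to 29177 for the double null. The Cy5 channel was brighter before normalization, with median spot intensities of 227 to 243 against 110 to 129 for Cy3. Any pair of arrays had a correlation of 0.36 to 0.41 between their log2 ratios over all tested probes, which are not independent replicates. Of the otic placode markers 8 of 9 genes were well above background, and Pax2 was not. The Fgf3 probe had log2 ratios (double null over double heterozygote, as everywhere below) of -0.69, -0.06 and -0.69 on arrays 1, 2 and 3, with a mean of -0.48 ± 0.12 (moderated SE, n = 3) and limma adjusted p = 0.121. The Fgf10 probe had 0.31, -0.11 and 0.23, with a mean of 0.14 ± 0.09 and adjusted p = 0.385. The labels do not place these probes inside or outside the mutated part of each gene, so they do not check the genotypes.

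In all, 14 of the 18 probes, from 8 genes, were tested, and each of these 14 cleared background for both genotypes on every array. Across the whole array 25506 probes were tested with limma, and 379 of them, 1.49%, passed an adjusted p of 0.05. None of the 14 ETS probes passed, while 4 had an unadjusted p under 0.05 (Etv4, Etv5 probe 2, Erf and Ets1 probe 3). All 4 were lower in the double null and were below 0 on all 3 arrays, as 19.2% of all tested probes were. No ETS probe was above 0 on all 3 arrays, as 24.6% of all were. The 4 lower probes at an unadjusted p under 0.05 compare with 8.35% of all tested probes that were lower at that level and 20.2% in either direction. On these same 4 probes every double null pool read below every double heterozygote pool, a separation that 6.98% of all tested probes showed. On 0 of the 14 did every double null pool read above, against 9.53% of all. The median log2 ratio was -0.21 over the 4 PEA3 probes and -0.05 over the 10 other ETS probes, against 0.01 over all tested probes.

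**Figure D1:**
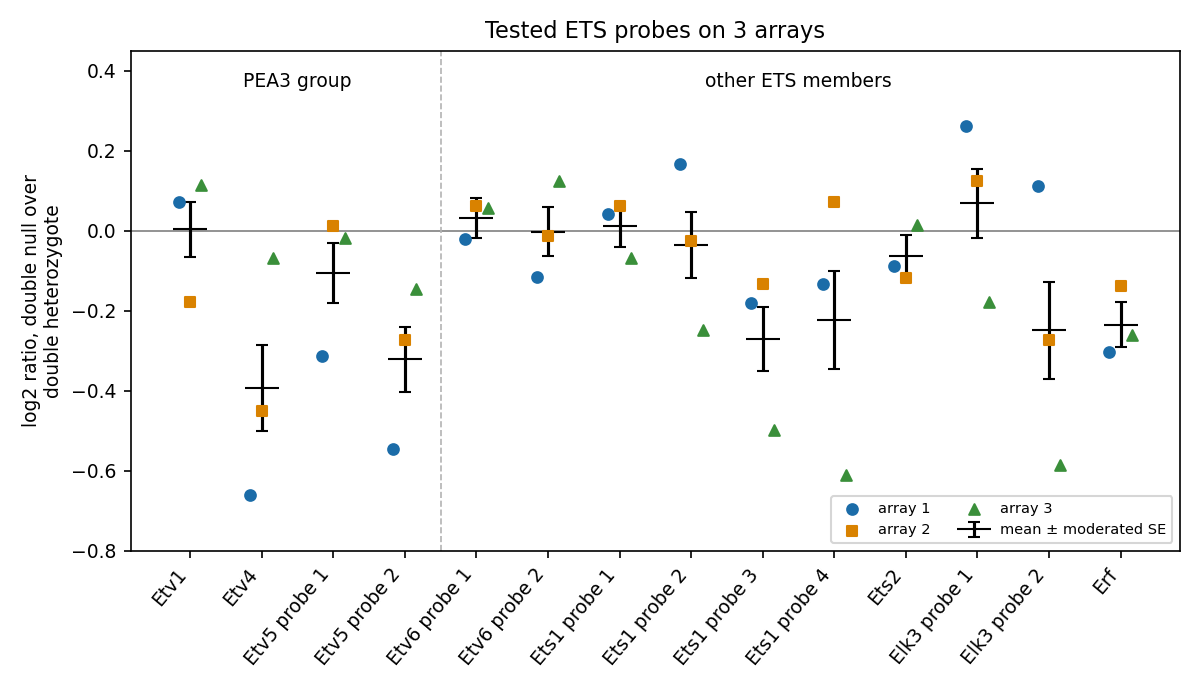
Log2 ratio of double null over double heterozygote for the 14 tested ETS probes, with 1 symbol per array and a bar for the mean ± moderated SE (n = 3 arrays). Etv4, Etv5 probe 2, Ets1 probe 3 and Erf are below 0 on all 3 arrays, and the other 10 probes have at least 1 array at or above 0.

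Etv4 had the lowest ratio of the ETS probes. Its normalized log2 intensity was 10.05, 9.94 and 9.79 in the double heterozygote pools of arrays 1, 2 and 3 and 9.39, 9.49 and 9.72 in the double null pools. All 3 null pools were below all 3 heterozygote pools, by a wide margin on arrays 1 and 2 and by little on array 3. The log2 ratios were -0.66, -0.45 and -0.07, with a mean of -0.39 ± 0.11 (moderated SE, n = 3), a fold of 0.762. The limma p was 0.0091 before adjustment and 0.131 after it. Only 0.369% of all tested probes had a mean ratio as low as this one. Before normalization the order of the genotypes was the reverse. The raw spot intensities were 627, 638 and 643 in Cy3 and 1011, 1024 and 1320 in Cy5, on arrays whose median spot was also brighter in Cy5.

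Etv5 was read by both its probes, and they differed. Probe 2 had log2 intensities of 9.49, 9.47 and 9.37 in the heterozygote pools and 8.94, 9.20 and 9.22 in the null pools, again with no overlap between genotypes. Its log2 ratios of -0.55, -0.27 and -0.14 gave a mean of -0.32 ± 0.08 (moderated SE, n = 3), a fold of 0.800. The limma p was 0.0063 unadjusted and 0.114 adjusted. Probe 1 had 8.61, 8.51 and 8.71 in the heterozygote pools and 8.30, 8.52 and 8.69 in the null pools, and there the genotypes overlapped. Its log2 ratios were -0.31, 0.01 and -0.02, with a mean of -0.11 ± 0.07 and adjusted p = 0.464. Probe 2 gave a lower ratio than probe 1 on every array, by -0.23, -0.29 and -0.13, a difference between probes that was not tested. Both placed their lowest ratio on array 1, as Etv4 did.

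Etv1, the remaining gene of the PEA3 group, stood near 0. Its probe, on the plus strand of chromosome 12 at 36701095 to 36701155, had log2 intensities of 10.09, 10.63 and 10.18 in the heterozygote pools and 10.16, 10.45 and 10.30 in the null pools. The genotypes overlapped, and the log2 ratios of 0.07, -0.18 and 0.11 took both signs. The mean was 0.0031 ± 0.07 (moderated SE, n = 3), with limma adjusted p = 0.985. The mean was below 0 in 8 of 20 other ways of processing.

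**Figure D2:**
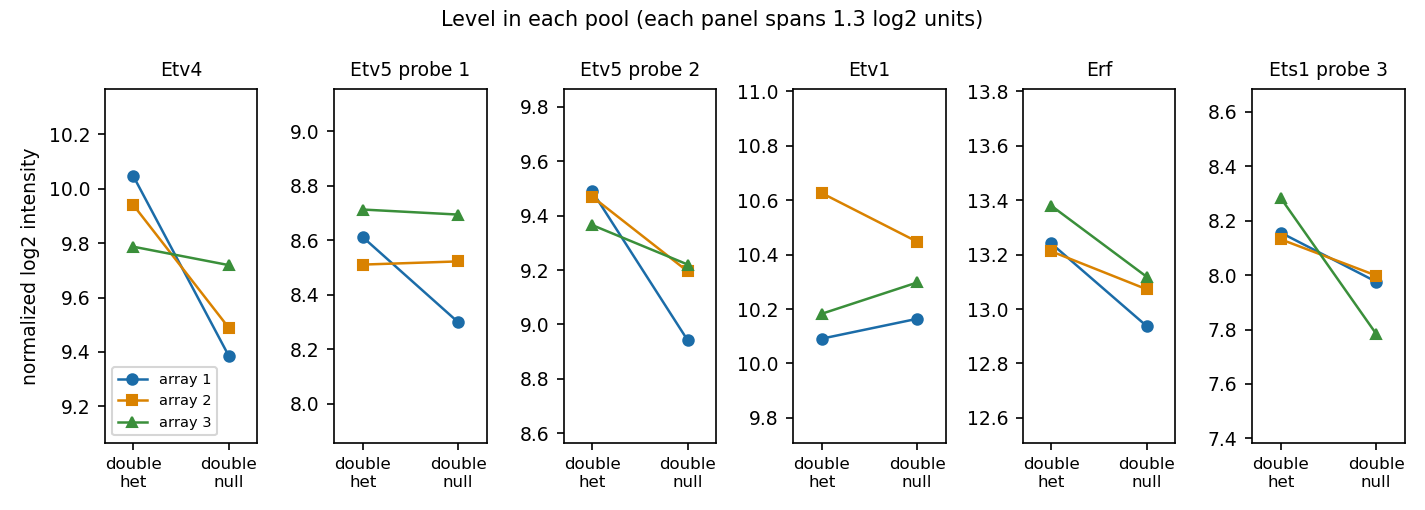
Normalized log2 intensity of 6 ETS probes in the double heterozygote and the double null pool of each array, with a line joining the pools of 1 array. Lines for Etv4, Etv5 probe 2, Erf and Ets1 probe 3 all slope down, while those of Etv1 and Etv5 probe 1 go both ways; heights are not comparable between panels because probes differ in brightness.

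Erf, which encodes an ETS repressor that ERK removes from the nucleus, had the most even ratios of the 4 probes below 0 on all arrays. Its probe, on the minus strand of chromosome 7 at 22032396 to 22032455, read 13.24, 13.21 and 13.38 in the heterozygote pools and 12.94, 13.07 and 13.12 in the null pools on the log2 scale. No null pool reached a heterozygote pool. The log2 ratios were -0.30, -0.14 and -0.26, with a mean of -0.23 ± 0.06 (moderated SE, n = 3), a fold of 0.850. The limma p was 0.0044 unadjusted and 0.101 adjusted. With the prior spread allowed to vary with intensity the adjusted p was 0.039, the only change of variance model that moved an ETS probe past the threshold. In that fit 993 of 25506 tested probes passed. With ratios centred on the array median in place of loess, the ratio was 0.33, and 0.0063 after recentring on the tested probes. Etv6, another repressor gene, had a ratio of 0.03 ± 0.05 on probe 1, where the arrays read -0.02, 0.06 and 0.06. On its probe 2 the ratio was -0.0022 ± 0.06, where the arrays read -0.12, -0.01 and 0.12. Adjusted p was 0.752 and 0.988, and the genotypes overlapped on both.

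The Ets1 probes did not read alike. Probe 3 had log2 intensities of 8.16, 8.13 and 8.28 in the heterozygote pools and 7.98, 8.00 and 7.78 in the null pools, without overlap. Its log2 ratios of -0.18, -0.13 and -0.50 gave a mean of -0.27 ± 0.08 (moderated SE, n = 3), a fold of 0.829. The limma p was 0.0127 unadjusted and 0.146 adjusted. Probe 4, 1982 bases further 3′, read -0.13, 0.07 and -0.61, with a mean of -0.22 ± 0.12 and adjusted p = 0.352. The overlapping probes 1 and 2 had means of 0.01 ± 0.05 and -0.04 ± 0.08, with adjusted p of 0.923 and 0.837. Array 3 gave the lowest ratio at each of the 4 Ets1 probes, at -0.07, -0.25, -0.50 and -0.61 from 5′ to 3′. Probe 1 was the dimmest of the tested members, at a log2 intensity of 6.76 to 6.99 over the 6 pools, where the added offset brings ratios closer to 0. Ets2, which encodes a close relative of Ets1, had a single probe with log2 ratios of -0.09, -0.12 and 0.01, a mean of -0.06 ± 0.05 and adjusted p = 0.532.

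Of the ternary complex factor genes, only Elk3 could be tested. Its probes lie 172 bases apart on the minus strand of chromosome 10 and gave means of opposite sign. Probe 1 read 0.26, 0.12 and -0.18, with a mean of 0.07 ± 0.09 (moderated SE, n = 3) and limma adjusted p = 0.689. Probe 2 read 0.11, -0.27 and -0.59, with a mean of -0.25 ± 0.12 and adjusted p = 0.305. The ratio of probe 2 was the lower on all 3 arrays, by -0.15, -0.40 and -0.41, and both probes were highest on array 1 and lowest on array 3. The single Elk1 probe was not well above background on any array in either channel. Its raw Cy3 spot intensities of 45.7, 50.3 and 48.1 stood beside local backgrounds of 38, 44 and 48, and the Cy5 spots of 57.1, 57.9 and 60.8 beside 52.5, 59 and 61. Of the 3 Elk4 probes, probe 1 was well above background in the heterozygote channel on 1 array, and the filter removed all 3. For these 4 probes no level or ratio is given.

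**Figure D3:**
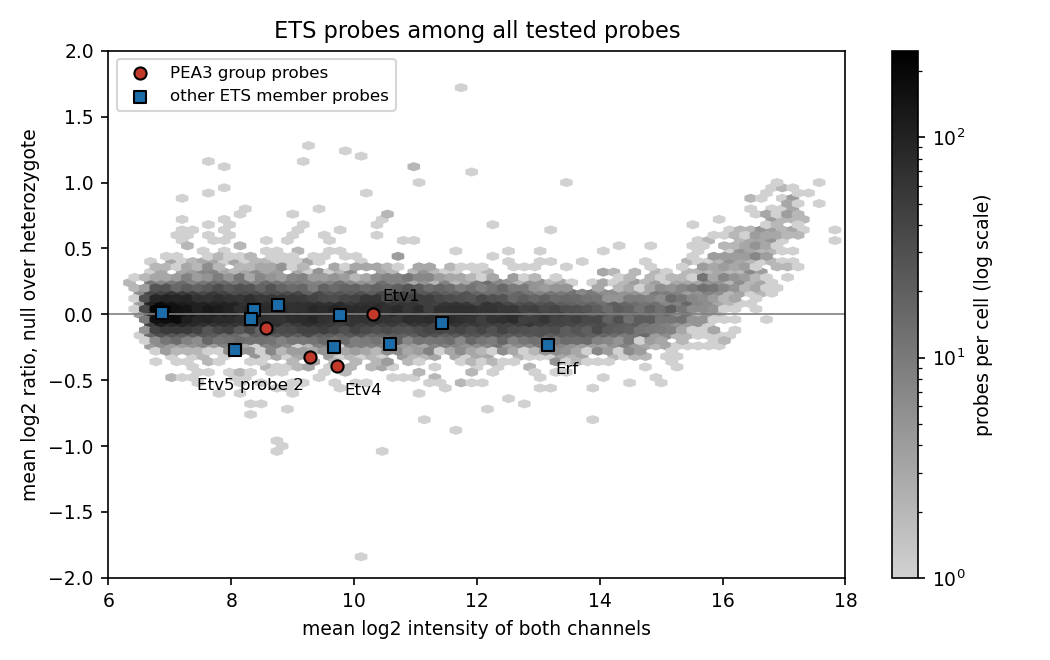
Mean log2 ratio against mean log2 intensity of both channels for the 25506 tested probes (grey cells, darker with more probes on a log scale), with PEA3 group probes as red circles and other ETS probes as blue squares. Etv4 at -0.39 and Etv5 probe 2 at -0.32 lie at the lower edge of the cloud, and every ETS probe lies to the left of the bright probes whose ratios bend upwards.

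The PEA3 genes and the other ETS members were ordered differently by the 3 arrays. The median log2 ratio of the 4 PEA3 probes was -0.43 on array 1, -0.23 on array 2 and -0.04 on array 3. For the 10 other ETS probes the medians were -0.05, -0.02 and -0.21. The PEA3 median was thus the lower on arrays 1 and 2 and the higher on array 3, where Ets1 and Elk3 had their lowest values. Not every gene followed its group median. Ets2 and Etv6 probe 2 were highest on array 3, at 0.01 and 0.12, Erf was lowest on array 1, and Etv1 was lowest on array 2, at -0.18. With 3 arrays, and several probes to a gene, no test was made of the difference between the groups. With 1 probe a gene, the brightest, the medians were -0.32 for the 3 PEA3 genes and -0.22 for the 5 other ETS genes. Median centring gave -0.025 and 0.33, and recentring gave -0.35 and 0.0063, so the median of the other ETS genes was not below 0 under either.

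Leaving out 1 array moved the values accordingly. The Etv4 ratio was -0.26 without array 1 and -0.56 without array 3, and that of Etv5 probe 2 was -0.21 and -0.41. Ets1 probe 3 went the other way, to -0.32 without array 1 and -0.16 without array 3. None of these passed the adjusted threshold in any of the 3 fits. Over all 20 other ways of processing, the Etv4 ratio lay between -0.56 and -0.05 and that of Etv5 probe 2 between -0.41 and -0.03, all below 0. Both passed in a single one, median centring recentred on the tested probes (adjusted p = 0.026 and 0.0131), in which 13927 of 25506 probes passed.

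**Figure D4:**
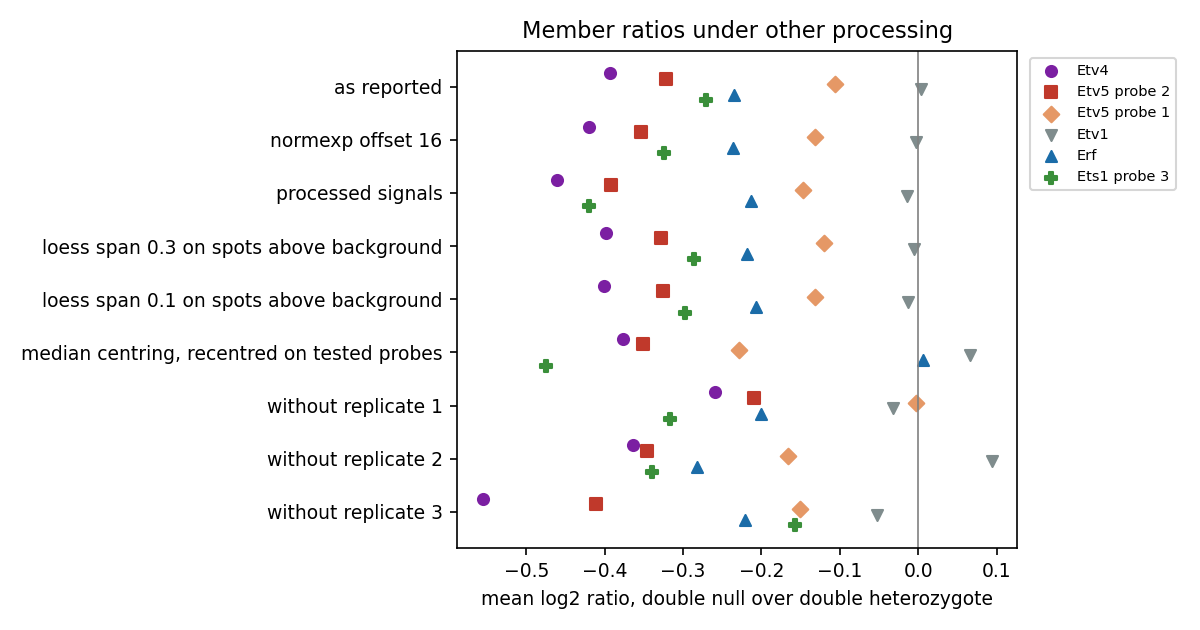
Mean log2 ratio of 6 ETS probes as reported (top row) and under 8 other ways of processing: a smaller background offset, the scanner's own processed signals, loess fitted on spots above background, median centring recentred on the tested probes, and each array (replicate) left out. Among the rows drawn, Etv4 is the lowest of the 6 except with recentring and without replicate 1, where Ets1 probe 3 is, while Etv1 lies on both sides of 0 and Erf reaches 0.0063 with recentred median centring.

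The remaining ETS family, a list of 16 genes outside the members, had 16 of its 27 probes tested, from 11 genes. None passed in either direction, beside 1.49% of all tested probes, and the median log2 ratio of the 16 was 0.05. Gabpa, a broadly expressed ETS activator gene and the brightest of the list, had a ratio of -0.02 ± 0.05 (moderated SE, n = 3), and Elf2 had -0.25 ± 0.07 with array values of -0.10, -0.21 and -0.44 (limma adjusted p = 0.145). Erg, Fli1 and Etv2, picked out after their values were seen, encode ETS factors of the blood vessel lineage. Their log2 ratios were highest on array 1: Etv2 read 1.39, -0.13 and 0.52, Fli1 read 1.09, 0.09 and 0.0094, and Erg read 1.18, 0.16 and -0.19. Limma adjusted p was 0.250, 0.317 and 0.398. With median centring Etv2 and Fli1 had 0.026 and 0.039, in a setting where 19485 of 25506 probes passed, 17193 of them higher. Endothelial markers were likewise highest on array 1, and none passed. Of 10 genes, 8 were well above background in either genotype on every array (Pecam1 and Tie1 were not). Cdh5 and Eng were so only in the double null, with 2 and 1 arrays in the double heterozygote. For Cdh5 and Eng the filter thus favours a ratio above 0. All 8 had a mean above 0 (7 with median centring, 5 when recentred). The median ratio of the 8 was 0.94 on array 1 against 0.14 and 0.12 on arrays 2 and 3. Their summed intensity was 4980 to 6252 in the heterozygote pools and 6063 to 7920 in the null pools, with the highest value in the null pool of array 1. These sums are on the linear scale, so Ramp2 weighs most. Its mean log2 intensity was 12.04, against 9.74 for Kdr, the next brightest, and its ratios were 0.44, -0.03 and -0.01. The part of endothelial RNA in the values of Erg, Fli1 and Etv2 was not tested. Ets1 and Elk3 are also transcribed in endothelium, and array 1 held the highest ratios among the members, 0.26 at Elk3 probe 1 and 0.17 at Ets1 probe 2. Their other probes read -0.18 to 0.11 on that array.

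Other markers also differed between the pools of an array. Neural crest markers were all 6 well above background, with median ratios of -0.14, 0.08 and -0.27 on arrays 1, 2 and 3 and summed intensities of 31379 to 43809 in the heterozygote pools and 35555 to 37170 in the null pools. Crabp1 weighs most in these linear sums, at a mean log2 intensity of 14.87 against 11.54 for Erbb3, the next brightest. None of the 6 passed, and they did not read alike. Foxd3 and Sox10 had their lowest ratios on array 3, at -0.56 and -0.47. Crabp1 was nearly level on arrays 1 and 3, at -0.30 and -0.31, and read 0.30 on array 2. Snai1 was lowest on array 3 too, at -0.03, but had a mean of 0.11. Erbb3 was lowest on array 1, at -0.36, and Snai2 was above 0 on all arrays, at 0.81, 0.24 and 0.19. Foxd3 and Sox10, transcription factor genes of the early neural crest, were picked for the plot of marker genes after their values were seen. Ets1 is itself transcribed in cranial neural crest, and its ratios at all 4 probes were lowest on array 3 too. The part of neural crest RNA in the Ets1 values was not tested. Of 12 tested otic probes 1 passed as lower and 0 as higher, beside 0.282% and 1.2% of all tested probes. It was the brightest Sox9 probe, at -0.69 (limma adjusted p = 0.0475), while the other Sox9 probes read -0.40 and -0.0041. The lowest otic genes on their brightest probes were Hmx3 at -1.01, Sox9, and Gata3 at -0.41, beside -0.39 for Etv4. The 8 otic markers above background all had a mean below 0 (3 with median centring, 7 when recentred), with medians of -0.43, -0.12 and -0.29. So had 7 of 7 surface ectoderm markers (0 with median centring, 3 when recentred), with -0.30, -0.02 and -0.13. So had 7 of 7 hindbrain markers (0 with median centring, 2 when recentred), with -0.13, -0.15 and -0.23. These counts use 1 probe a gene, the brightest. On that rule 8041 of all 16842 tested genes were below 0 and 8801 above. Pax6 read -0.02 on its brightest probe and 0.13 on its other tested probe. Etv4 and both Etv5 probes were lowest on array 1, like the otic and surface ectoderm medians. On array 3 Etv4 and Etv5 probe 2 were higher than on array 2, whereas Etv5 probe 1 and those medians were lower. The part of placodal cell number in the Etv4 and Etv5 values was not tested. Head mesenchyme medians were 0.27, -0.10 and 0.08, endoderm medians -0.04, -0.25 and -0.12, and red cell medians 1.14, -0.02 and 1.72. Of 5 tested endoderm probes 1 passed as lower, the brightest of Sox17, at -0.53 (limma adjusted p = 0.0155). The other tested Sox17 probe read -0.36 (adjusted p = 0.0556). No surface ectoderm, hindbrain, head mesenchyme or red cell probe passed. Of the red cell markers 3 of 6 were well above background, and Alas2, Gata1 and Hbb-y were not. Klf1 was so on every array only in the double null, and on 2 arrays in the double heterozygote.

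**Figure D5:**
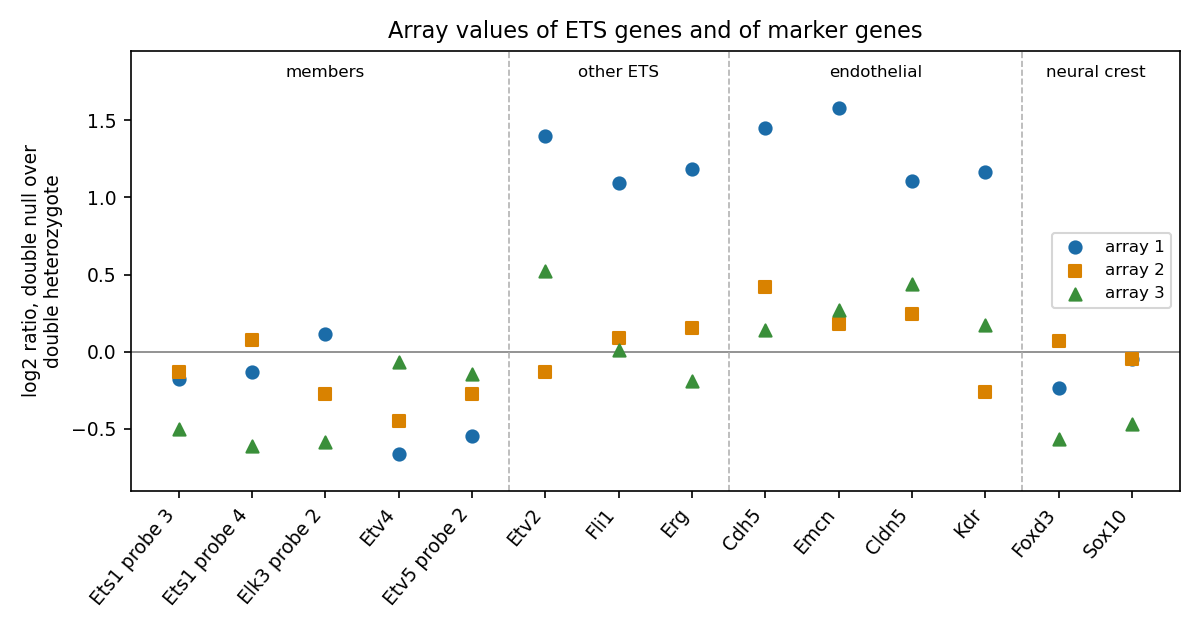
Log2 ratio of double null over double heterozygote on each of 3 arrays for 5 member probes, 3 vessel ETS genes, 4 endothelial markers and 2 neural crest markers. Etv2, Fli1 and Erg lie above 1 on array 1 together with Cdh5, Emcn, Cldn5 and Kdr, while Ets1, Elk3, Foxd3 and Sox10 have their lowest value on array 3. The tested endothelial markers not drawn were lower on array 1: Esam 0.77, Ramp2 0.44, Tek 0.41 and Eng 0.35. Among the neural crest markers not drawn, Snai2 was above 0 on all arrays and Erbb3 was lowest on array 1. Snai1 was lowest on array 3, and Crabp1 was nearly level on arrays 1 and 3.

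Feedback inhibitors of FGF signalling gave a comparison with other transcripts of the pathway. Of 20 tested probes from 12 genes, 2 passed as lower and 0 as higher, beside 0.282% and 1.2% of all tested probes, and the median ratio was -0.09. With 1 probe a gene, the brightest, it was -0.07, with 4 of 12 genes above 0, against 0.43 with 10 above 0 under median centring and 0.11 with 7 above 0 when recentred. Dusp6, a phosphatase of ERK, fell on all arrays, with log2 ratios of -0.39, -0.47 and -0.64 and a mean of -0.50 ± 0.06 (moderated SE, n = 3, limma adjusted p = 0.0168), although median centring gave 0.20 and recentring -0.12 (adjusted p = 0.151). Spred3, an inhibitor of the RAS to ERK cascade, fell by 0.44 ± 0.07 on the log2 scale (adjusted p = 0.0428), with array values of -0.56, -0.49 and -0.26. Neither call was stable: on the scanner's processed signals both had adjusted p = 0.207 at ratios of -0.49 and -0.57, and with probes up to a mean log2 intensity of 15 they had 0.0771 and 0.107. Dusp6 lost the call without array 2 (adjusted p = 0.0559) and without array 3 (0.10), and Spred3 lost it without array 1, 2 or 3 (0.0886, 0.126 and 0.0644). Spry1, Spry2 and Spry4, the Sprouty inhibitor genes, had ratios of -0.20, -0.05 and -0.09, with adjusted p of 0.150, 0.657 and 0.452. Dusp6 was lowest on array 3, while Spred3, like Etv4 and Etv5 probe 2, was lowest on array 1 and highest on array 3.

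Genes between receptor and ERK gave no call. Of 48 tested probes from 21 genes, 0 passed in either direction, beside 1.49% of all tested probes. An unadjusted p under 0.05 (limma) was seen at 10 of the 48, near the 20.2% of all tested probes. The median ratio of the 48 was 0.01. With 1 probe a gene, the brightest, the median was -0.01, with 9 of 21 genes above 0. Median centring gave 0.50 with 21 above 0, and recentring gave 0.18 with 18 above 0. Ptpn11, the SHP2 phosphatase gene, had -0.12 ± 0.05 on its brightest probe (limma adjusted p = 0.271), with 0.14 and 0.06 on its others. The brightest probe turned positive with median centring, to 0.60.

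Genes that ternary complex factors and SRF regulate had 13 tested probes from 10 genes, with a median of 0.02. Of these probes 1 passed as higher and 0 as lower, beside 1.2% and 0.282% of all tested probes. Junb, an immediate early gene of the AP-1 complex, rose on this 1 probe, with log2 ratios of 0.45, 0.39 and 0.34, a mean of 0.39 ± 0.05 (moderated SE, n = 3) and limma adjusted p = 0.0198. Its second probe gave 0.05, over both probes together the ratio was 0.22 with adjusted p = 0.140, and without array 1, 2 or 3 the adjusted p was 0.056, 0.0757 and 0.103. Egr2, an immediate early gene that is also a marker of hindbrain segments, had -0.31 ± 0.06 (adjusted p = 0.0832). Of the 4 genes known to depend on Etv4 and Etv5 in kidney buds (Cxcr4, Myb, Met and Mmp14), 10 probes were tested and 0 passed in either direction (limma), with a median of -0.05. Over all tested probes 1.49% passed. At an unadjusted p under 0.05 stood 3 of these 10 probes, beside 20.2% of all tested probes. They went both ways, 2 of Met higher and 1 of Myb lower. That Myb probe, named after its values were seen, read -0.28, -0.16 and -0.16 (limma adjusted p = 0.126), and the other tested Myb probes had means of -0.05 and 0.09. Met, a receptor tyrosine kinase gene, had 0.25 ± 0.07 on its brightest probe (adjusted p = 0.128) and 0.16 and -0.12 on others, and Mmp14, a membrane-bound matrix metalloproteinase gene, had -0.08 ± 0.06 (adjusted p = 0.504).

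The 3 array ratios of 12938 named genes were ranked by their Euclidean distance from those of Etv4 and of Etv5 probe 2, in log2 units, as a description of likeness over 3 arrays. Nearest to Etv4 were Abhd17c, a depalmitoylase gene, at 0.207, Spred3 at 0.216, the homeobox gene Pknox1 at 0.224, Etv5 at 0.224 and Dnaaf5, a gene for the assembly of ciliary dynein arms, at 0.227. Nearest to Etv5 were Dnaaf5 at 0.068, the translation initiation factor gene Eif4g1 at 0.0725, Fbxl19 at 0.0818, Frg1 at 0.0863 and the glypican gene Gpc2 at 0.115. Etv5 probe 2 was 4th in the order for Etv4, and Etv4 was 55th in the order for Etv5 probe 2. Only the brightest probe of a gene was ranked, so Etv5 probe 1, with array ratios of -0.31, 0.01 and -0.02, was not. Of all these genes, Spred3 alone passed the adjusted threshold in the 3 array fit.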

How the data were processed

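Spot values came from Agilent Feature Extraction 9.5.1.1, per the submitters' processing notes. The deposited scanner files hold spot and local background intensities that were not normalized, the software's processed intensities, which per the file headers are corrected for background and dye, and the log10 of the Cy5 to Cy3 ratio. Log2 ratios make up the series table the authors deposited, which matched the scanner ratios on a log2 scale to within 2.01e-06, with column medians of -0.012, -0.0082 and -0.0031, so its scale and direction are settled by this match. Probe positions are on mm7, per the file headers.

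Background was corrected with normexp (offset 50), and ratios were normalized within arrays by loess (span 0.3, control spots at weight 0, 143 to 175 outlier spots per array left out). Spots of a probe were averaged. A probe was kept when either genotype was well above background on every array, and those with at least 2 usable arrays, 25506 in all, were tested. Mean log2 ratios were tested against 0 by an intercept-only moderated fit (lmFit, then eBayes; limma 3.58.1, R 4.3.3). P-values were adjusted over every tested probe (Benjamini-Hochberg) and called below 0.05. Errors are moderated standard errors, and having 3 arrays is what limits their precision. On simulated ratios for 25506 probes, 86 of 100 changes of 0.5 and 98 of 100 changes of 1 (log2) were called, and 14 of 25306 probes without a change. The simulated noise was drawn independently for each array, with no dye or intensity shift. The real ratios correlated at 0.36 to 0.41 between arrays, so these counts need not hold for the data. Genes were named through RefSeq records of GRCm38.p6 (22951 probes by accession, 6659 by symbol, 3109 by synonym, 8455 kept as in the files).

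The members, gene lists and tests were chosen with earlier results of these data known. Named genes were every member with every probe, up to 6 genes of a pathway list past the threshold by smallest p, from a list with fewer than 2 such also its brightest tested genes up to 2 in all, Dusp6, Spry1, Spry2 and Spry4, both targeted genes, and the 5 genes nearest to Etv4 and to Etv5. A gene that this rule names is not reported here. Where a gene outside the member list has several probes, the brightest stands for it unless stated. Alternatives changed the background treatment, the normalization, the probe filter, the probe rule, the variance model, the threshold and the arrays used, and median centring recentred on the tested probes was added after seeing the data.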

Additional observations from a re-analysis of the deposited data

How the results depend on the processing

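The main count of 379 probes past the threshold (72 lower, 307 higher, 81% higher) moved with most settings. It was 199 (90.5% higher) with a normexp offset of 16, 205 and 11 (100% higher) with loess spans of 0.3 and 0.1 on spots above background, 993 (64% higher) when the prior followed intensity, 190 (93.7% higher) in the separate-channel fit, which has no replicate block, 21 (95.2% higher) for mean log2 intensities up to 15 and 1077 (65.1% higher) at an adjusted p of 0.10. It was 0 on the processed signals and 0 on the series table (limma, with 4417 and 4469 probes at an unadjusted p under 0.05), 19485 with median centring (88.2% higher) and 13927 when recentred (45.3% higher), and 82 to 309 with 1 array left out, lowest without array 3. The pools are paired by array, so the fit without that pairing is the separate-channel one.

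The 14 member probes gave 0 calls in the main fit and in all other settings (4 or 5 of the tested probes, or 3 of 8 genes, at an unadjusted p under 0.05) but 3. These gave 7 with median centring (1 lower, 6 higher), 4 when recentred (Ets1 probes 1 and 3, Etv4 and Etv5 probe 2, all lower) and 1 with an intensity trend (Erf). Of all 25506 tested probes, 19485 passed with median centring (2292 lower, 17193 higher), 13927 when recentred (7617 lower) and 993 with the trend. Median centring without loess moved the median of all tested probes to 0.33.

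Signs turned mainly under median centring: Elk3 probe 2 to 0.087, Erf to 0.33, Ets1 probes 1, 2 and 4 to -0.21, 0.13 and 0.18, Ets2 to 0.39, Etv5 probe 1 to 0.10, Etv6 probe 2 to 0.34, Dusp6 to 0.20, Spry1 to 0.28, Spry2 to 0.44, Gabpa to 0.50, Elf2 to 0.21, Ptpn11 to 0.60, Egr2 to 0.41, Mmp14 to 0.50, Foxd3 to 0.17, Sox10 to 0.16, Abhd17c to 0.22, Pknox1 to 0.042, Dnaaf5 to 0.23, Eif4g1 to 0.41, Fbxl19 to 0.27, Frg1 to 0.15 and Gpc2 to 0.15. After recentring they turned for Elk3 probe 1 (-0.021), Erf (0.0063), Ets1 probe 1 (-0.54), Ets2 (0.065), Etv6 probes 1 and 2 (-0.12, 0.017), Spry2 (0.12), Gabpa (0.17), Ptpn11 (0.28), Egr2 (0.085), Mmp14 (0.18) and Eif4g1 (0.089). Etv1 turned to -0.0025 with offset 16, -0.015 on processed signals and on the series table, -0.0050 and -0.013 with the loess spans and -0.019 with array weights, and Ets1 probe 1 to -0.070 on processed signals and the series table. The mean of all probes turned Etv6 (0.015), Gabpa (0.036) and Ptpn11 (0.029). With 1 array left out the ranges that crossed 0 were -0.027 to 0.19 (Elk3 probe 1), -0.013 to 0.052 (Ets1 probe 1), -0.14 to 0.070 (Ets1 probe 2), -0.053 to 0.094 (Etv1), -0.065 to 0.055 (Etv6 probe 2), -0.067 to 0.0018 (Gabpa) and -0.016 to 0.67 (Erg). The cause of these turns was not tested.

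Probes above a mean log2 intensity of 15 were shifted upwards (25% of those between 15 and 17 were called higher), and no member probe was that bright. Dim probes are drawn towards 0 by the offset, and Elk1 and Elk4 could not be measured.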
